A study of Mus musculus with 12 samples.

Results

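The genes described here encode 2 subunits of the high-affinity immunoglobulin E (IgE) receptor and products typical of mast cells, basophils and eosinophils. They were taken as all probe sets annotated to exactly 1 of 9 genes, namely Fcer1a, Ms4a2, Cpa3, Cma1, Mcpt8, Gata2, Hdc, Prg2 and Epx, which gave 12 of the 28898 probe sets with a single gene. The 3 lines compared were TB13 and TB14, both murine acute myeloid leukaemia lines carrying Trib1 together with Bcl11a, and Trib1, a murine acute myeloid leukaemia line carrying Trib1 alone, with 4 arrays each. All 3 grew in IMDM with fetal bovine serum and interleukin-3 and received no treatment, so Trib1 and interleukin-3 were common to every array. Trib1 is a pseudokinase adaptor for protein degradation, Bcl11a a zinc finger repressor, and the series asks how Bcl11a affects PU.1, a transcription factor of myeloid cells that Spi1 encodes. Each genotype is represented by 1 or 2 lines, no line carried Bcl11a without Trib1, and the labels do not say whether the arrays of a line came from separate cultures. The p-values below thus take in the spread between arrays alone, and this may be technical.

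On mast cells and basophils the IgE receptor is a complex of an alpha chain that binds IgE, a beta chain that amplifies the signal, and gamma chains that carry most of the signalling capacity. In mice the beta chain is needed for the complex to reach the cell surface. Crosslinked receptors release granules that hold histamine and proteases, and trigger synthesis of leukotrienes and cytokines. The same growth factor used for these cultures, interleukin-3, supports basophils and mast cells, and GATA2 and PU.1 are both known regulators of their genes.

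Values were linear intensities, and the arrays within a line correlated across probe sets at 0.9953 or above. The TB13 arrays were dimmer, with upper quartiles of 71.8 to 72.5 against 102 to 108.9 on the other 8 arrays, and their 18 hybridization controls, which do not come from the cells, had a median log2 difference of -0.93 from Trib1 (17 of 18 lower). In TB14 that median was 0.0010. Over the 11223 genes tested the median log2 difference from Trib1 was -0.39 in TB13 and -0.0024 in TB14. The TB13 median became 0.026 with quantile scaling, 0.023 with cyclic loess, -0.63 when arrays were set to one median and 0.51 when the hybridization controls were used for calibration. Log2 differences are of deposited values unless another scaling is named. The probe sets of the introduced genes were dim in all lines, at 6.70 to 21.5 for Bcl11a and 14.4 to 40.1 for Trib1, and whether they can detect the introduced copies is unknown here, so they checked no label.

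As deposited, the IgE receptor chains differed from Trib1 in opposite directions in both lines, with more Ms4a2 and less Fcer1a and Fcer1g RNA. The granule genes split by line, since Mcpt8 and Hdc were low in TB13 and not in TB14, Cma1 was low in both and Cpa3 was very bright everywhere. Fewer cells that express a gene and less RNA per cell cannot be told apart in bulk RNA. Of the 12 probe sets, 10 from 7 genes exceeded the array median on all 12 arrays and were tested, and those of Prg2 and Epx lay below it on all 12. In TB13 8 of the 10 passed limma at a Benjamini-Hochberg adjusted p under 0.05, where 90.4% of all 17480 probe sets tested passed. Of these 3 were higher and 5 lower (26% and 64.4% of all), and after quantile scaling 9 of the 10 passed (80% of all). TB13 and Trib1 did not overlap for 7 of the 10, where this held for 85.7% of all, so nothing is read from the TB13 counts. In TB14 9 passed (49.5% of all), 7 higher and 2 lower (29.6% and 19.9% of all), and 9 passed after quantile scaling (44% of all). TB14 and Trib1 did not overlap for 9 of the 10, where this held for 56.7% of all. With both lines weighted equally, all 10 passed (81% of all), 5 higher and 5 lower (25.9% and 55.1% of all). Called differences of 2-fold or more were fewer, with 2 probe sets higher and 4 lower in TB13 (0.772% and 15.3% of all) and 2 higher and 2 lower in TB14 (0.995% and 1.5% of all). In each line the 2 higher were the probe sets of 1 gene, Ms4a2, and the 4 lower in TB13 included both of Hdc. Called in 1 direction under all 5 scalings were 2 higher and 3 lower in TB13 (15.5% and 9.93% of all) and 5 higher and 2 lower in TB14 (21.2% and 16% of all). Again the 2 higher in TB13 were those of Ms4a2, and the 5 higher in TB14 included both of Ms4a2 and both of Gata2. The median log2 difference of the 10 was -0.47 in TB13 and 0.14 in TB14, beside -0.39 and 0.0084 over all 17480. Both sets of differences use the same 4 Trib1 arrays.

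**Figure D1:**
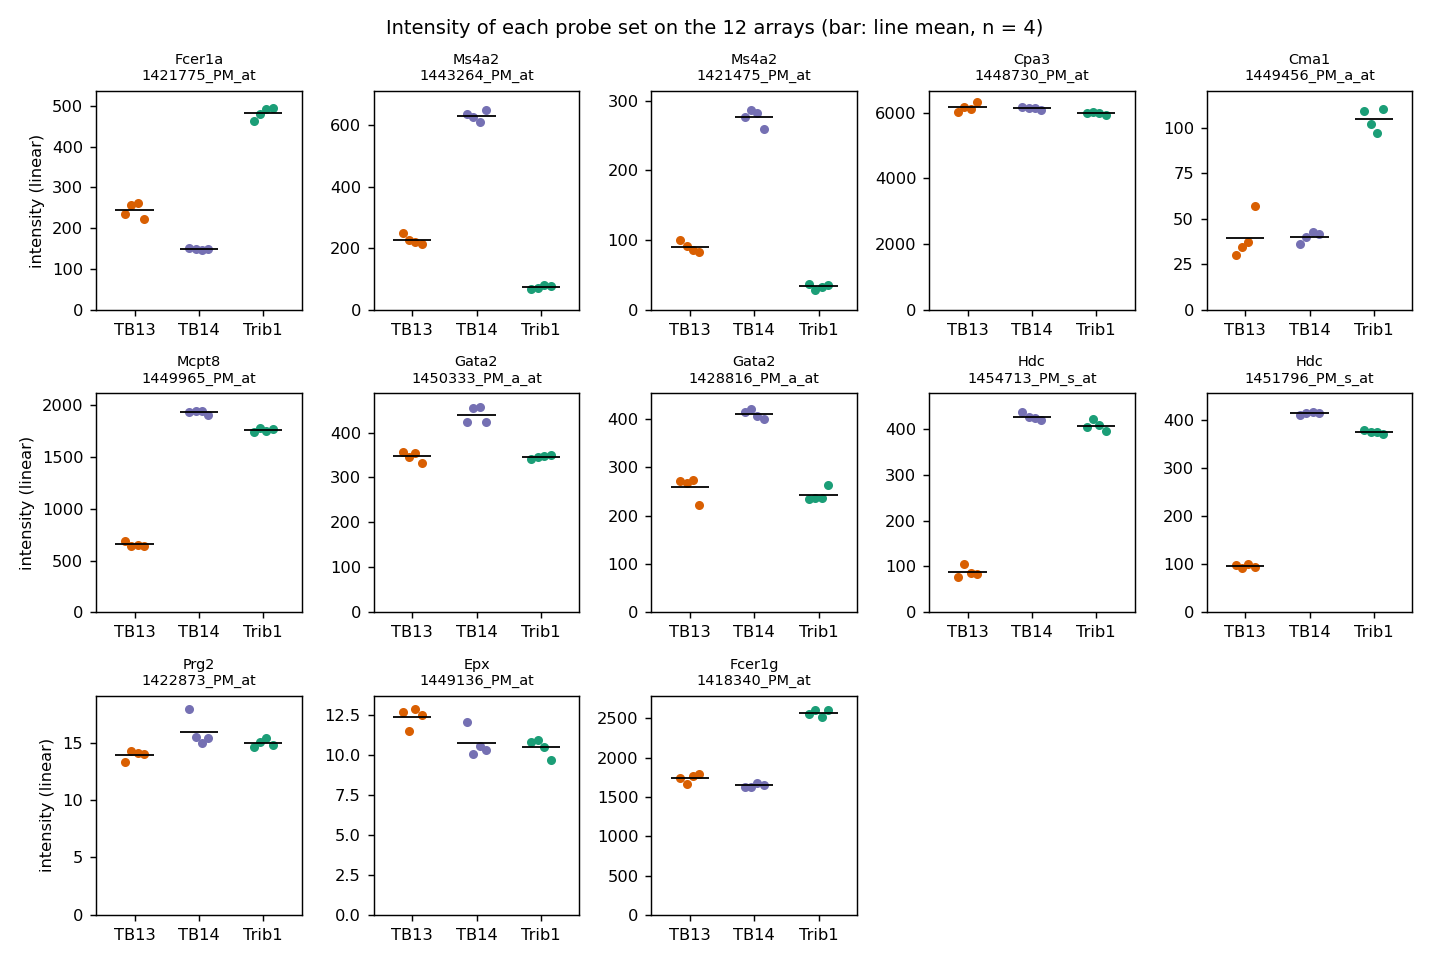
Linear intensity (vertical axis, from 0) of each probe set on the 4 arrays of TB13, TB14 and Trib1, with a bar at the line mean. Ms4a2 was highest in TB14, Fcer1a highest in Trib1, Hdc and Mcpt8 were lowest in TB13, and Prg2 and Epx stayed at or below 17.9 on every array.

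Fcer1a, which encodes the IgE-binding alpha chain, was lower in both Bcl11a lines. Its intensity was 234, 258, 261 and 222 on the TB13 arrays and 152, 150.3, 146 and 149.6 on the TB14 arrays, against 463, 479.9, 493 and 493 on the Trib1 arrays. No array of either line reached the lowest Trib1 array, and all TB14 arrays lay below all TB13 arrays. In TB14 the log2 difference from Trib1 was -1.61 ± 0.047 (SE; 0.328-fold, limma adjusted p = 4.37e-16, lower on 4 of 4 arrays), and it stayed between -1.70 and -1.59 under the 5 scalings. In TB13 it was -0.95 ± 0.047 as deposited (adjusted p = 2.37e-13 in limma) but -0.20 ± 0.041 after quantile scaling (limma adjusted p = 0.000266). Calibration on the hybridization controls left -0.045 in TB13, which did not pass limma (adjusted p = 0.457). The size of the TB13 difference in Fcer1a thus rested on the scaling, and its sign was negative in all 5.

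Ms4a2, which encodes the signal-amplifying beta chain, was the member with the largest rise. Its brighter probe set, 1443264_PM_at, read 249, 229, 221 and 214 on the TB13 arrays and 636, 627, 612 and 649 on the TB14 arrays, against 68.5, 71.4, 81.6 and 77.4 on the Trib1 arrays. The 3 lines did not overlap, and their order was TB14, TB13, Trib1 from high to low. The log2 difference from Trib1 was 1.46 ± 0.052 in TB13 (2.76-fold, limma adjusted p = 2.52e-15) and 2.88 ± 0.052 in TB14 (7.37-fold, limma adjusted p = 3.74e-19). A second Ms4a2 probe set, 1421475_PM_at, read 101, 91.9, 85.3 and 83.4 in TB13 and 276, 286, 283 and 259 in TB14, against 36.8, 29.3, 33.2 and 35.9 in Trib1. It gave the same order of the lines, with log2 differences of 1.15 ± 0.063 in TB13 and 2.64 ± 0.063 in TB14 (limma adjusted p = 1.46e-12 and 2.55e-17). Quantile scaling enlarged the TB13 differences of these probe sets to 2.09 and 1.56. Under the 5 scalings the TB13 difference ranged between 0.93 and 2.45 over both probe sets and the TB14 difference between 2.38 and 3.01.

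Fcer1g encodes the gamma chain, which several activating Fc receptors share, and was measured beside the members. Its intensity was 1737, 1669, 1768 and 1796 in TB13 and 1624, 1627, 1682 and 1651 in TB14, against 2554, 2603, 2518 and 2599 in Trib1. All 8 Bcl11a arrays lay below all Trib1 arrays. The log2 difference was -0.56 ± 0.021 in TB13 as deposited, -0.38 after quantile scaling, and -0.64 ± 0.021 in TB14 (limma adjusted p = 7.38e-15, 1.32e-10 and 4.26e-15), and it was called lower in both lines under all 5 scalings. Fcer2a, the low-affinity IgE receptor of B cells, did not pass the filter on dim probe sets, its brighter probe set averaging 18.2 in TB13 and 14.4 in TB14, against 13.4 in Trib1.

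The sequences around the start sites of Ms4a2 and Fcer1a are shown because these subunit genes moved in opposite directions. They are RefSeq windows of 300 bases on GRCm38.p6, from 250 bases before to 50 bases after the annotated start, printed 5′ to 3′ in the direction of the gene, with GATA on either strand (TATC on the other strand) in capitals. The Ms4a2 window lies at chr19:11623670-11623969 on the minus strand and the Fcer1a window at chr1:173227180-173227479 on the minus strand.
Ms4a2: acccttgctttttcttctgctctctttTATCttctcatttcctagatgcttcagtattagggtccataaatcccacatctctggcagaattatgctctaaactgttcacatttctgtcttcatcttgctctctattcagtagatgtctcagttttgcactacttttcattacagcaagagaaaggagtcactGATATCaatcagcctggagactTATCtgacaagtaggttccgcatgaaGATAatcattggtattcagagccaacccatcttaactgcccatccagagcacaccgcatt
Fcer1a: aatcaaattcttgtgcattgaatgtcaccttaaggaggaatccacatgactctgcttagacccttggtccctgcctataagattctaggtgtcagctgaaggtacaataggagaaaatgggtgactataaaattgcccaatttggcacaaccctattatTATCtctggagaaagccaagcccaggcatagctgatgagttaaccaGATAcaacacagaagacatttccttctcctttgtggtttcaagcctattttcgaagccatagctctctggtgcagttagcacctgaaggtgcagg
GATA, the core letters recognised by GATA factors, matched 5 times in the Ms4a2 window, at -223, -58, -56, -36 and -10 from the start, where the matches at -58 and -56 overlap on opposite strands as GATATC. Of 32851 promoter windows of the same length, 57.9% held GATA at least once and 1.88% held 5 or more, a count chosen for comparison after the Ms4a2 matches were seen. The longer form AGATAA, which contains GATA, matched 3 times in Ms4a2. It was present at least once in 11.2% of windows, and the share with 3 or more was not counted. The Fcer1a window held 2 GATA matches and 1 AGATAA match. GGAA, the core letters recognised by PU.1 and other ETS factors, matched 2 times in each of these windows and was present at least once in 96% of all. A match of letters is a description and not a binding site.

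**Figure D2:**
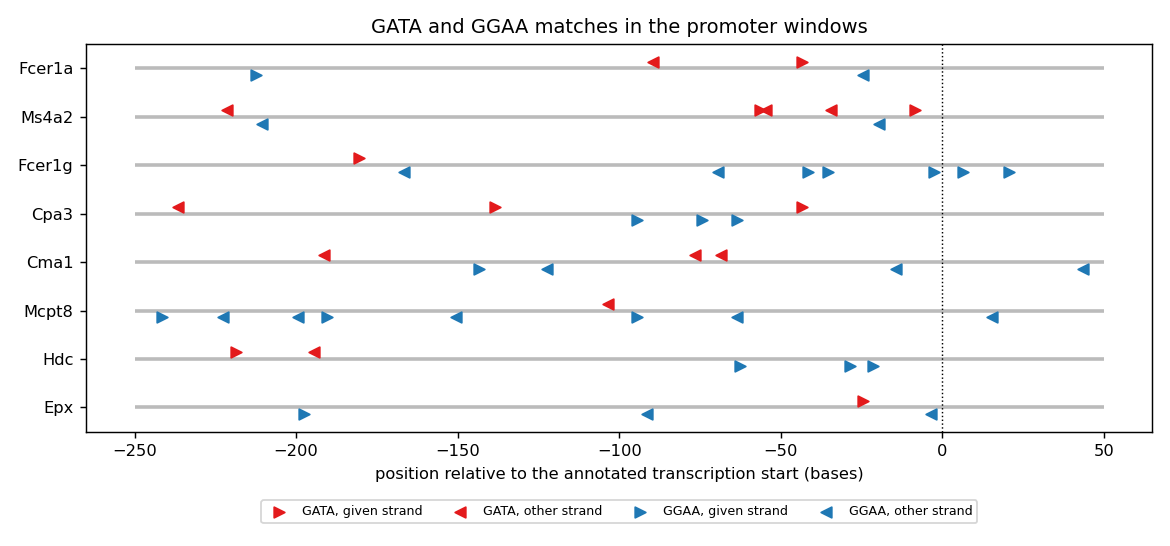
Positions of GATA (red) and GGAA (blue) matches in the 300-base RefSeq windows of 7 members and Fcer1g, as distance in bases from the annotated start (dotted line); triangles pointing right are on the printed strand and those pointing left on the other strand. Ms4a2 holds 5 GATA matches and Mcpt8 holds 8 GGAA matches. Of all windows 1.88% hold 5 or more GATA and 28.6% hold 5 or more GGAA. The Gata2 windows, with 0 GATA matches, are not drawn.

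Among the granule proteases, Cpa3 was near the top of the intensity scale in all lines. It encodes mast cell carboxypeptidase A and is among the earliest genes of mast cell and basophil progenitors. Its intensity was 6004, 6167, 6122 and 6320 in TB13 and 6166, 6130, 6138 and 6076 in TB14, against 5980, 6006, 5990.3 and 5914 in Trib1. On every array this was the 99.8th percentile. The log2 differences were 0.043 in TB13 and 0.037 in TB14 (limma adjusted p = 0.00371 and 0.02), with 0.019 in TB13 after quantile scaling (limma adjusted p = 0.181), and the ranges overlapped in TB13 and not in TB14. The TB13 difference turned negative under median scaling (-0.22), loess (-0.034) and calibration on the controls (-0.068), so no direction is given for Cpa3 in TB13. In TB14 calibration on the controls gave 0.055, which did not pass limma (adjusted p = 0.105).

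Cma1, which encodes the chymase Mcpt5 of connective tissue mast cells, was lower in both Bcl11a lines as deposited. It read 30.2, 34.5, 37.5 and 57.0 in TB13 and 36.0, 40.0, 42.8 and 41.7 in TB14, against 109, 102, 97.4 and 111 in Trib1. The 8 Bcl11a arrays all lay below the Trib1 arrays, and array 4 of TB13 was the highest of them. The log2 difference was -1.19 ± 0.10 in TB13 and -1.15 ± 0.10 in TB14 (limma adjusted p = 1.47e-09 and 1.26e-08), and -1.08 and -1.02 after quantile scaling. Calibration on the controls left -0.0043 in TB13, which did not pass limma (adjusted p = 0.971), while in TB14 the difference stayed between -1.18 and -1.02 under all 5 scalings. With the low TB13 and TB14 values near the array medians of 20.8 to 25.9, the added 12.7 understates these differences.

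Mcpt8, the basophil protease of mice, was low in TB13 and slightly higher in TB14. Its intensity was 690, 644, 645 and 640.2 in TB13 and 1933, 1936, 1945 and 1903 in TB14, against 1743, 1779, 1747 and 1766 in Trib1. No ranges overlapped, with TB14 highest and TB13 far below both other lines. The log2 difference was -1.41 ± 0.023 in TB13 (0.377-fold) and 0.13 ± 0.023 in TB14 (1.10-fold; limma adjusted p = 1.09e-19 and 7.42e-05). Quantile scaling reduced the fall in TB13 to -0.98, and under the 5 scalings it lay between -1.67 and -0.89. The TB14 difference stayed between 0.10 and 0.18.

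Hdc, the enzyme that makes histamine from histidine, followed the same split by line. Probe set 1454713_PM_s_at read 76.3, 106, 85.9 and 84.2 in TB13 and 436, 426, 422 and 418 in TB14, against 403, 419.97, 407 and 394 in Trib1. TB13 was below all other arrays, and the TB14 and Trib1 ranges overlapped. Probe set 1451796_PM_s_at read 97.9, 92.9, 101 and 93.9 in TB13 and 412, 415, 418 and 415 in TB14, against 379.8, 377, 377 and 371 in Trib1. On this probe set TB14 lay above Trib1 without overlap. The TB13 log2 differences were -2.06 ± 0.061 and -1.83 ± 0.037 as deposited and -1.44 and -1.16 after quantile scaling (limma adjusted p from 1.13e-18 to 9.73e-14 over 1451796_PM_s_at and from 2.08e-16 to 4.95e-11 over 1454713_PM_s_at). Across the 5 scalings they stayed between -2.30 and -0.76 and were always called. In TB14 the differences were 0.065 ± 0.061 (limma adjusted p = 0.412) and 0.14 ± 0.037 (limma adjusted p = 0.00396), so that a change in TB14 was called on 1 of the 2 probe sets.

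The start site windows of Hdc and Mcpt8 are shown because both genes were low in TB13 and not in TB14. They come from the same RefSeq table, at chr2:126618629-126618928 and chr14:56085148-56085447, both on the minus strand, with GATA on either strand in capitals.
Hdc: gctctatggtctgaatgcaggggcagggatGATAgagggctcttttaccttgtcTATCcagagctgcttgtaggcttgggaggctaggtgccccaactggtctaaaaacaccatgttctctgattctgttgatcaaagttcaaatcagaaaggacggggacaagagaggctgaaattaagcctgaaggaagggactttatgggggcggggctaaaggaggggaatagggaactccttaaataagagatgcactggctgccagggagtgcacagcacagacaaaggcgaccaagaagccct
Mcpt8: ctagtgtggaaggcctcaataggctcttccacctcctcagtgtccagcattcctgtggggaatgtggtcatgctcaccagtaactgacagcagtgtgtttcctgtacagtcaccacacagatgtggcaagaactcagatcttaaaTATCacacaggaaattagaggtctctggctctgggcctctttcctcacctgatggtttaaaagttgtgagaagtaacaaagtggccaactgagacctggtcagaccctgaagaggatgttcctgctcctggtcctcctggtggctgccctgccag
The Hdc window held 2 GATA and 3 GGAA matches, and the Mcpt8 window held 1 GATA and 8 GGAA matches. Of all 32851 windows 28.6% held 5 or more GGAA matches, and the share with 8 or more was not counted. Among the other members, Cpa3 and Cma1 each had 3 GATA matches, Epx had 1 and the 2 Gata2 windows had 0. For Prg2 no window was used here.

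Gata2, a transcription factor required for mast cells and basophils, rose in TB14. Probe set 1450333_PM_a_at read 357, 347, 354 and 333 in TB13 and 424, 454, 458 and 424 in TB14, against 341, 345, 348 and 350.5 in Trib1. Probe set 1428816_PM_a_at read 272, 268, 274 and 222 in TB13 and 414, 421, 407 and 400.5 in TB14, against 234, 237, 237 and 263 in Trib1. On both probe sets TB14 lay above the other lines as deposited, while TB13 and Trib1 overlapped. The TB14 log2 differences from Trib1 were 0.33 ± 0.036 and 0.73 ± 0.055 (limma adjusted p = 2.01e-07 and 1.19e-09), called under all 5 scalings. In TB13 the deposited differences of 0.0057 and 0.087 did not pass limma (adjusted p = 0.882 and 0.141). After quantile scaling they were 0.72 and 0.84 and passed, under median scaling they were -0.25 and -0.17, and no direction is given for Gata2 in TB13.

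Kit, the stem cell factor receptor of mast cells and progenitors, was measured beside Gata2. It read 236, 253, 291 and 216 in TB13 and 486, 499.98, 508 and 521 in TB14, against 221, 252, 246 and 237 in Trib1. As deposited, TB14 stood above the other lines, which overlapped. Kit rose in TB14 under all 5 scalings, by 1.04 ± 0.063 on the log2 scale as deposited (limma adjusted p = 4.36e-11). In TB13 its difference was 0.050 as deposited (limma adjusted p = 0.454), 0.80 after quantile scaling and -0.20 under median scaling, so no direction is given there. After quantile scaling Kit read 332 to 420 in TB13 and 418 to 447 in TB14, which overlap, against 193 to 216 in Trib1. TB14 minus TB13 was 0.99 as deposited, 0.23 after quantile scaling (limma adjusted p = 0.0014) and, when calibrated on the controls, 0.11 and not called (limma adjusted p = 0.0756). It stayed positive under all 5 scalings, which the Gata2 difference did not.

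The eosinophil granule genes were dim. Prg2, eosinophil major basic protein, read 13.3 to 14.3 in TB13 and 14.9 to 17.9 in TB14, against 14.6 to 15.4 in Trib1. Epx, eosinophil peroxidase, read 11.5 to 12.9 in TB13 and 10.1 to 12.1 in TB14, against 9.68 to 10.9 in Trib1. Every one of these values was below its array's median, so neither gene was tested and no difference is read from them.

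**Figure D3:**
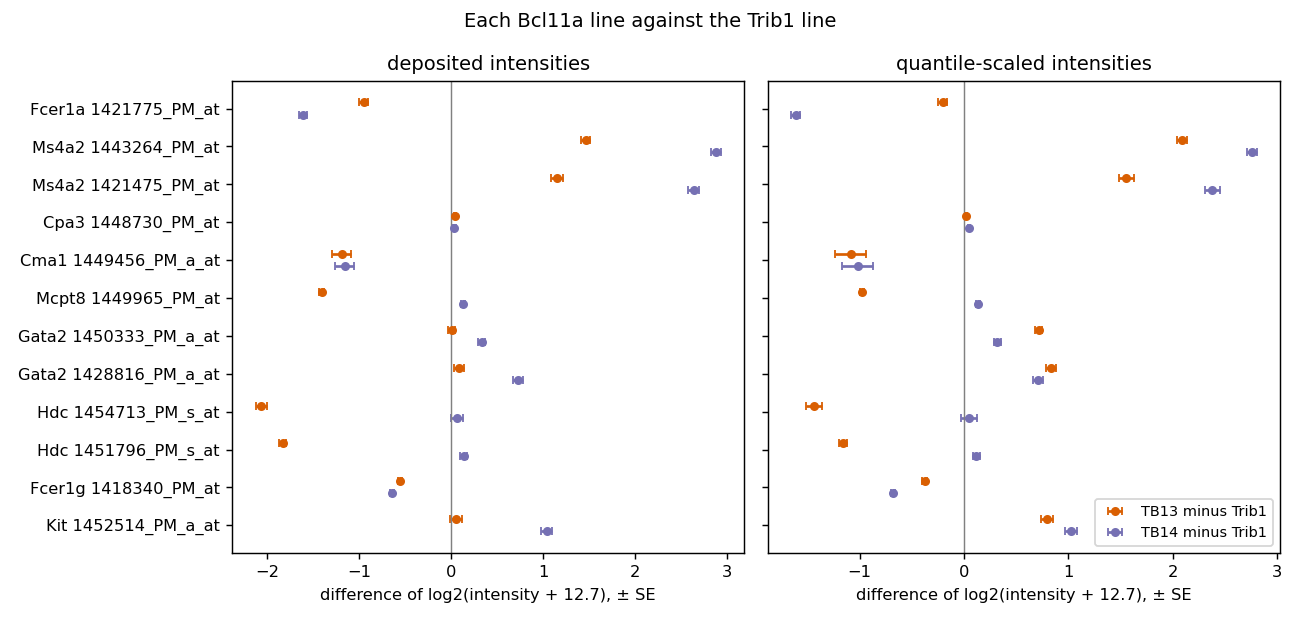
Difference of log2(intensity + 12.7) from Trib1 (horizontal axis, ± SE) for TB13 (orange) and TB14 (purple), as deposited on the left and after quantile scaling on the right. TB14 values barely move between the panels, whereas in TB13 Gata2 and Kit move away from 0 and Fcer1a moves towards it.

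The direct comparison of TB14 with TB13 separated the lines that share both introduced genes. As deposited, 8 of the 10 probe sets passed limma, 7 higher and 1 lower in TB14, where 91.2% of all probe sets passed (65.1% higher and 26% lower), so the count itself is near the background. At 2-fold or more 5 were called higher and 0 lower, where 17.2% and 0.91% of all were. Ranges of the 2 lines did not overlap for 8 of the 10, where this held for 87.1% of all. Called in 1 direction under all 5 scalings were 5 higher and 1 lower, where 12.3% and 15.3% of all were. The 5 were both probe sets of Ms4a2, both of Hdc and that of Mcpt8, and the lower one was Fcer1a. The difference of TB14 minus TB13 was 1.42 and 1.49 for Ms4a2 (0.67 and 0.82 after quantile scaling), 1.54 for Mcpt8 (1.11), 2.13 and 1.97 for Hdc (1.48 and 1.28) and -0.66 for Fcer1a (-1.41), all called by limma. Gata2 was higher in TB14 as deposited, by 0.33 and 0.64, but lower after quantile scaling, at -0.39 and -0.13. Over both lines together, 2 probe sets, both of Ms4a2, were called higher and 2 lower at 2-fold or more, where 0.309% and 2.57% of all were. Under all 5 scalings 3 were higher and 5 lower, where 14.2% and 11.1% of all were, but without the 4 TB13 arrays Hdc read 0.14 and 0.065 and Mcpt8 0.13, no longer lower.

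**Figure D4:**
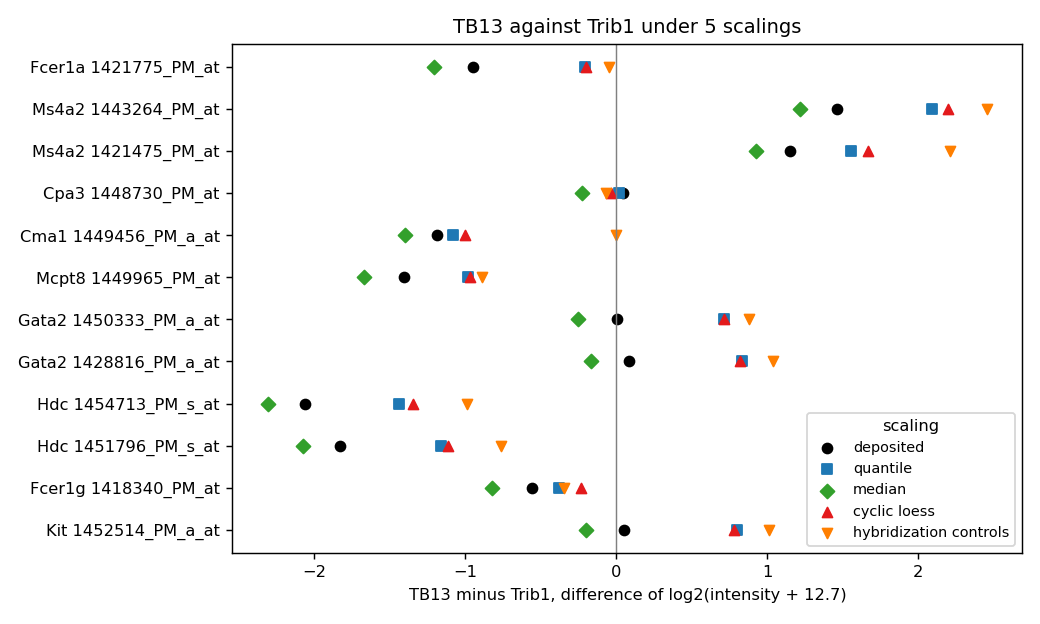
Log2 difference of TB13 minus Trib1 (horizontal axis) for each probe set under the 5 scalings, given by symbol. Ms4a2 lies right of 0 and Hdc, Mcpt8 and Fcer1g left of 0 under all 5, while Gata2, Kit and Cpa3 lie on both sides.

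The wider programme was described with 8 gene lists of 131 genes, of which 114 had a single-gene probe set and 91 were tested, each by its brightest probe set. Called under all 5 scalings in TB13 were 7 genes higher and 26 lower, where 18.4% and 10.7% of all genes were. In TB14 these counts were 20 and 41, where 19.4% and 17.3% of all genes were. By the deposited values, 29% of all genes were called higher and 63.6% lower in TB13, 41.9% and 38.4% after quantile scaling, and 27% and 21.5% in TB14. As with the members, the lists were chosen with earlier results known, and the counts describe them only.

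Genes of IgE receptor signalling were mixed in direction. Of 20 tested, TB13 had 3 higher and 17 lower as deposited and 8 higher and 9 lower after quantile scaling, and TB14 had 4 higher and 9 lower. The median log2 difference was -0.64 in TB13 (-0.39 over all genes), -0.037 after quantile scaling (0.026) and -0.088 in TB14 (-0.0024). Lat, the membrane adaptor that couples the receptor to phospholipase C, rose to 561 ± 23.0 in TB13 and 756 ± 40.1 in TB14, against 179.9 ± 4.99 in Trib1 (SD, n = 4). Its log2 difference was 1.58 in TB13, 2.16 there after quantile scaling, and 2.00 in TB14 (limma adjusted p = 3.22e-17, 1e-16 and 1.87e-18). Prkcb, a protein kinase C, fell to 89.9 ± 21.5 in TB13 and 216 ± 10.0 in TB14, against 559 ± 40.0 in Trib1 (SD, n = 4), log2 differences of -2.49 in TB13 (-1.89 after quantile scaling) and -1.32 in TB14. Rasgrp1, an activator of Ras, fell in both lines on its brightest probe set, with log2 differences of -1.30 in TB13 (-0.56 after quantile scaling) and -1.48 in TB14. A dimmer Rasgrp1 probe set gave -0.060 in TB13 and -0.22 in TB14. In TB13 it did not pass limma in a fit of all single-gene probe sets without the filter (adjusted p = 0.251). Inpp5d, the inhibitory phosphatase SHIP1, fell in both lines, with log2 differences of -1.09 in TB13 and -0.45 in TB14 as deposited and -0.36 and -0.48 after quantile scaling, which turns the order of the lines. Its dimmer probe set gave 0.17 in TB14 (limma adjusted p = 0.026 in the same fit without the filter). On their brightest probe sets these 4 genes kept their direction and call against Trib1 under all 5 scalings.

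Among mast cell proteases and granule matrix genes, 9 of 18 were tested. In TB13 3 were higher and 3 lower, and in TB14 6 were higher and 1 lower, with medians of 0.044 and 0.072. The tryptase genes Tpsab1 and Tpsb2 and the chymase genes Mcpt1, Mcpt2, Mcpt4 and Mcpt9 did not pass the filter on dim probe sets, and Cma2, Prss34 and Slc18a2 were not analysed here. Srgn, the proteoglycan core of granules, averaged 6200 ± 90.8 in TB13 and 6095 ± 49.4 in TB14, against 5558 ± 89.2 in Trib1 (SD, n = 4), a rise of 0.16 and 0.13 on the log2 scale, which in TB13 was 0.15 after quantile scaling and turned to -0.11 under median scaling. Ndst2, which sulfates heparin, rose in TB14, with a log2 difference of 0.37, and no direction is given for TB13. There it differed by 0.054 as deposited (limma adjusted p = 0.293), was called higher under 3 scalings, at 0.78 after quantile scaling, and was called lower under median scaling, at -0.19. Ctsg, cathepsin G, differed by -0.16 in TB13 (-0.12 after quantile scaling) and 0.21 in TB14, called in these opposite directions under all 5 scalings. Besides Ctsg, Mcpt8 was the gene of this list called in opposite directions in the lines.

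Enzymes of lipid and amine mediators included Alox5, which had the largest deposited difference from Trib1 of any list gene. Of 10 tested, TB13 had 3 higher and 7 lower as deposited, or 3 and 6 after quantile scaling, and TB14 had 2 higher and 6 lower, with medians of -0.59, -0.54 and -0.23. Alox5, the 5-lipoxygenase that starts leukotriene synthesis, fell to 105 ± 17.2 in TB13 and 606 ± 14.5 in TB14, against 1556 ± 30.3 in Trib1 (SD, n = 4), log2 differences of -3.75 in TB13 (-3.19 after quantile scaling) and -1.34 in TB14. Ltc4s, leukotriene C4 synthase, fell to 49.3 ± 3.54 in TB13 and 58.9 ± 3.18 in TB14, against 205 ± 16.2 in Trib1 (SD, n = 4). Tph1, the serotonin-synthesis enzyme of mast cells, rose to 484 ± 38.8 in TB13 and 278 ± 4.99 in TB14, against 145 ± 8.87 in Trib1 (SD, n = 4). Histidine decarboxylase (Hdc) and Tph1 were thus apart in TB13, where Hdc fell and Tph1 rose. Alox5, Ltc4s and Tph1 kept direction and call in both lines under all 5 scalings.

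Surface receptors of mast cells and basophils gave 2 higher and 11 lower of 16 tested in TB13, 7 and 9 after quantile scaling, and 2 and 8 in TB14. Il18r1, a chain of the interleukin-18 receptor, fell, with log2 differences of -1.91 in TB13 (-1.22 after quantile scaling) and -1.81 in TB14. Il3ra, the alpha chain of the receptor for interleukin-3, fell to 42.0 ± 2.89 in TB13 and 57.0 ± 0.90 in TB14, against 119 ± 3.86 in Trib1 (SD, n = 4). Il4ra and Crlf2, receptor chains for interleukin-4 and thymic stromal lymphopoietin, fell, with log2 differences of -1.15 and -0.97 in TB13 and -0.90 and -0.85 in TB14. After quantile scaling those of TB13 were -0.54 and -0.53. Under calibration on the controls the TB13 differences of Il3ra and Il4ra shrank to -0.088 and -0.030 and were not called. Siglecf, a lectin of eosinophils, was 1 of 2 tested genes of the eosinophil list and fell to 418 ± 16.5 in TB13 and 832 ± 5.49 in TB14, against 1208 ± 12.8 in Trib1 (SD, n = 4). Il1rl1, Cd63 and the Mrgprb1 and Mrgprb2 receptors were not analysed here.

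Transcription factors of these cell types gave 1 higher and 18 lower of 22 tested in TB13, 11 and 9 after quantile scaling, and 11 and 10 in TB14. Id2, an inhibitor of E proteins, fell, with log2 differences of -2.89 in TB13 (-2.22 after quantile scaling) and -1.72 in TB14. Bhlhe40, a repressor induced by cytokines, fell to 629 ± 14.2 in TB13 and 562 ± 8.31 in TB14, against 1710 ± 12.1 in Trib1 (SD, n = 4). Spi1, which encodes PU.1, and Lmo2, a partner of GATA factors, fell in both lines under all 5 scalings. Their log2 differences were -1.11 and -1.01 in TB13, -0.38 and -0.35 there after quantile scaling, and -0.37 and -0.34 in TB14. Xbp1 was called higher in TB13 (0.12) and lower in TB14 (-0.18), though in TB13 it read -0.15 under median scaling. Meis1 was dim, at 21.7, 38.2 and 32.3 on average in TB13, TB14 and Trib1, and called lower in TB13 (-0.39) and higher in TB14 (0.18), but higher in TB13 under calibration on the controls (0.67).

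Cytokine and chemokine genes gave 0 higher and 7 lower of 9 tested in TB13 as deposited, 2 and 6 after quantile scaling, and 0 and 8 in TB14. Ccl3, a chemokine released by activated mast cells, fell to 175 ± 8.87 in TB13 and 283 ± 6.38 in TB14, against 902 ± 28.6 in Trib1 (SD, n = 4), the only one of the 9 called lower in TB13 under all 5 scalings. Lif, Il6 and Ccl4 fell in TB14 on their brightest probe sets, with log2 differences of -0.85, -0.39 and -0.55. In TB13 Lif and Il6 were called lower under 4 of the 5 scalings, at -1.04 and -0.70 as deposited and -0.31 and -0.10 after quantile scaling, but read 0.046 and 0.018 under calibration on the controls, where neither was called. Ccl4 in TB13 was -0.54 as deposited but 0.24 after quantile scaling. Il4, a cytokine of basophils, was dim, with line means of 23.7 to 26.9, and as deposited was not called in either line. In TB13 it was -0.23 after quantile scaling (limma adjusted p = 0.000198). Its TB13 difference lay between -0.31 and 0.99 over the 5 scalings, called lower under 3 and higher under 1. No direction is thus given for Il4 in TB13.

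**Figure D5:**
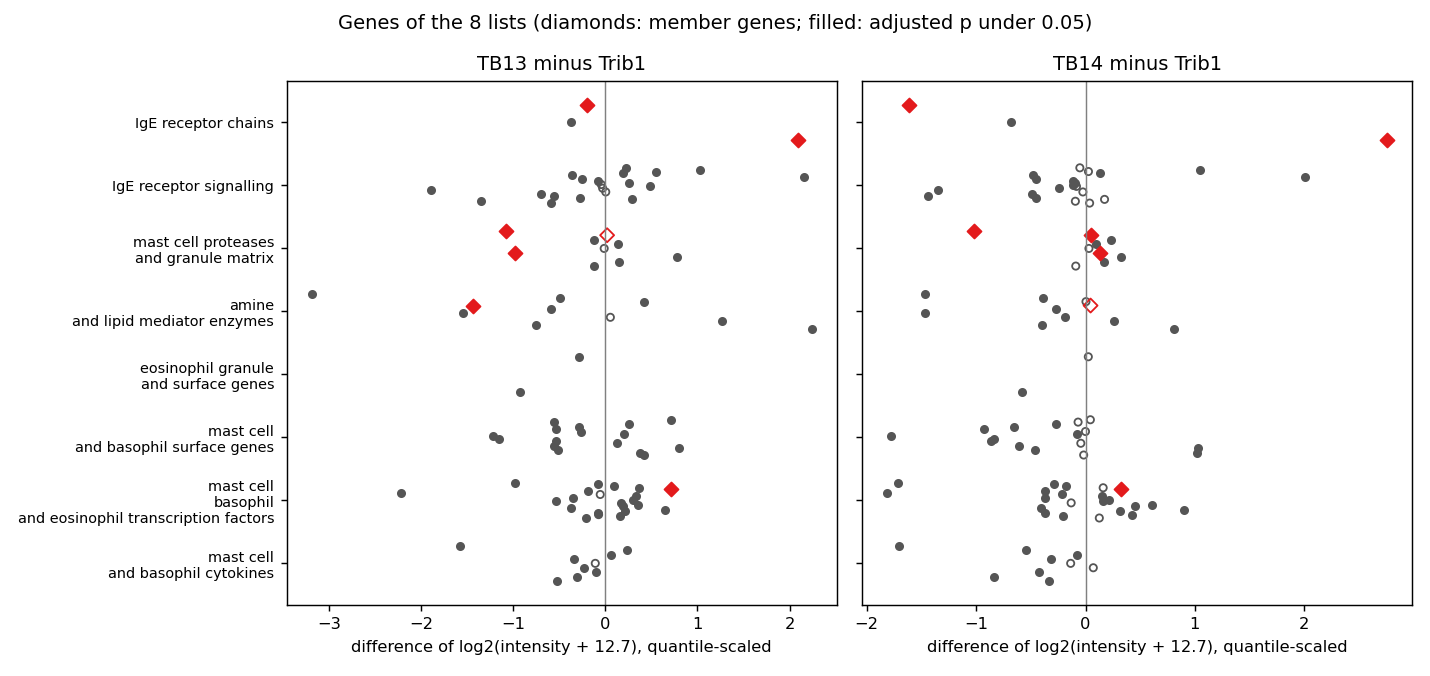
Log2 difference from Trib1 after quantile scaling (horizontal axis) for the tested genes of the 8 lists in TB13 (left) and TB14 (right); red diamonds are members and filled symbols have an adjusted p under 0.05. In TB14 Ms4a2 is the rightmost gene, and Alox5 is the leftmost in TB13, at -3.19.

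Genes whose 12 values followed a member most closely were ranked by the root mean square difference of log2 values, each centred on its Trib1 mean, over 11223 genes and the deposited values. These differences include the dimmer TB13 arrays. Closest to Ms4a2 were Marcksl1 (0.10), Thy1 (0.15) and Ugt1a9 (0.27). Closest to Fcer1a were Cd24a (0.11), Ier3 (0.11) and Slc6a13 (0.16). Cma1 was followed by Itgae, Lgals3 and Pim3 (0.15 to 0.16), Hdc by Rdh11, Ift122 and Far2 (0.14 to 0.17) and Mcpt8 by Ubap1, Bmt2 and Zfp146 (0.047 to 0.049). Gata2 lay nearest to Gstp1, Dut and Sdhb (0.039 to 0.052), and Cpa3 to the bright genes Rps2, Fth1 and Anp32b (0.019 to 0.023).

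Marker lists of other cell types differed between the lines as well, by the deposited intensities. The summed intensity of 8 neutrophil markers, all measured, was 6339 to 6387 in TB13 and 14567 to 14694 in TB14, against 6406 to 6600 in Trib1, and that list shares Ctsg with the granule genes. Its genes differed in direction, with Mpo averaging 853 in TB13 and 2296 in TB14, against 226 in Trib1, and S100a9 68.5 in TB13 and 2570.3 in TB14, against 166 in Trib1. The 4 of 6 monocyte and macrophage markers that were measured summed to 1161 to 1368 in TB13 and 1395 to 1423 in TB14, against 2950.4 to 3135 in Trib1. Of the erythroid list 3 of 6 were measured, with sums of 1602 to 1733 in TB13 and 1533 to 1561 in TB14, against 916 to 967 in Trib1. Most of each erythroid sum was Hba-a1, averaging 1519 in TB13 and 1459 in TB14, against 857 in Trib1. Epor averaged 120 in TB13 and 68.0 in TB14, against 70.0 in Trib1, and Klf1 lay below the array median on all 12 arrays. Megakaryocyte markers, 5 of 5 measured, summed to 768 to 855 in TB13 and 939 to 959 in TB14, against 962 to 1026 in Trib1, while Pf4 in that list averaged 197 in TB13 and 323 in TB14, against 187 in Trib1. T cell markers, 5 of 6 measured, summed to 213 to 254 in TB13 and 130.3 to 133 in TB14, against 192 to 202 in Trib1. Within that list Cd3e averaged 153 in TB13 and 62.8 in TB14, against 65.9 in Trib1. Cd3g went the other way in TB13, averaging 14.6 there and 13.9 in TB14, against 69.0 in Trib1. B cell markers, 4 of 5 measured, summed to 123 to 139 in TB13 and 86.4 to 93.9 in TB14, against 90.5 to 94.4 in Trib1. Stromal markers, 5 of 5 measured, summed to 356 to 419 in TB13 and 677 to 720.4 in TB14, against 872 to 921 in Trib1. Pecam1 was the largest part of each sum, averaging 285 in TB13 and 579 in TB14, against 771 in Trib1. Dcn, Col1a1 and Col3a1 were instead higher in TB13 than in Trib1, Dcn at 32.7 against 17.8. Of these Col1a1 and Col3a1 lay below the array median on all 12 arrays. No measured marker of any list was at 0. The part of these cell type programmes in the differences of the members was not tested.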

How the data were processed

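The 12 arrays measured total RNA of 3 lines, 4 per line, grouped by their titles. The authors deposited linear intensities made with MAS5, per the submitters' processing notes, without a version; no scaling target is stated there. Gene names came from the platform annotation, with 28898 of 45141 probe sets having 1 gene, 551 several and 15588 none, besides 104 controls. No symbol changed through RefSeq identifiers, and 8 of 9 members matched a RefSeq promoter window.

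Intensities were taken as log2(value + 12.7), 12.7 being their 25th percentile. Single-gene probe sets above the array median on at least 4 of 12 arrays were tested (17480, or 11223 genes by their brightest probe set) in 1 limma 3.58.1 fit with a trend (R 4.3.3) of 3 groups, without a block, with Benjamini-Hochberg adjustment over all tested and calls under 0.05. Such log2 differences understate those of dim genes. Arrays have no depth, and their number limits the precision. The code was tested on simulated data.

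The members, the lists and the rule for naming genes were chosen with earlier results of these data known. The rule named all members, Fcer1g and Kit, up to 4 called genes per list with the largest difference over both lines, genes called in opposite directions in the lines, and the 3 genes most like each member. Fcer2a, Il4 and genes not passing the filter were named after their values were seen. Alternatives were other scalings, filters, added constants, variance models, 1 probe set per gene, a 2-fold threshold, a replicate block and leaving out each array; a fit on line means and one without TB13 were chosen after seeing the data. Figures used matplotlib 3.10.9.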

Additional observations from a re-analysis of the deposited data

Results flagged for a closer look

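Within a line, 3 of 36 sets of 4 arrays held an array far from the other 3, and chance flags about 1 in 20 such sets. These were array 4 of Trib1 for Gata2 probe set 1428816_PM_a_at, at 262.8 where the other 3 read 234 to 237, array 4 of TB13 for the same probe set, at 222, and array 1 of TB13 for Mcpt8, at 689.9.

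The differences of TB13 and TB14 from Trib1 were themselves different for 5 of the 7 members tested, by the test of TB14 minus TB13 in limma. That test called 92.8% of all genes and 91.2% of all probe sets. Ranges of the 2 lines did not overlap for 87.1% of all probe sets, so nothing is read from the count. The difference was 1.42 and 1.49 for the Ms4a2 probe sets (adjusted p = 3.34e-15 and 2.74e-14 in limma), 2.13 and 1.97 for Hdc (limma adjusted p = 1.83e-16 and 1.32e-18), 1.54 for Mcpt8 (limma adjusted p = 7.28e-20) and -0.66 for Fcer1a (limma adjusted p = 6.17e-11), in each case with all 4 TB14 arrays on 1 side of all 4 TB13 arrays. For Gata2 it was 0.33 and 0.64 as deposited (limma adjusted p = 5.12e-08 and 1.28e-09) and negative under quantile scaling, loess and calibration on the controls.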

How the results depend on the processing

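Of 1078 recomputed values of member probe sets, 1002 kept direction and call, 38 lost the call, 10 gained it and 28 turned; the cause was not tested. Turned values of TB14 minus TB13 were, for Gata2, -0.13 and -0.39 under quantile scaling, -0.15 and -0.44 under loess and -0.25 and -0.50 under calibration on the controls, for Cpa3 0.030, 0.079 and 0.12 under these and 0.29 under median scaling, and for Cma1 -0.17 under loess and -1.15 under calibration. In TB13 against Trib1, median scaling gave -0.17 and -0.25 for Gata2 and -0.22 for Cpa3, loess -0.034 and calibration -0.068 for Cpa3. Over both lines Cpa3 read -0.081 under median scaling and -0.0063 under calibration, and without the 4 TB13 arrays Mcpt8 read 0.13 and Hdc 0.14 and 0.065. Leaving out 1 array gave -0.0067 to 0.025 for Gata2 1450333_PM_a_at in TB13 and, in TB14 minus TB13, -0.057 to 0.18 for Cma1 and -0.018 to 0.0071 for Cpa3; without TB13 replicate 4 Gata2 1428816_PM_a_at was called in TB13 at 0.16 (limma adjusted p = 0.00118) and Cma1 in TB14 minus TB13 at 0.18, and Cpa3 lost its TB14 call without Trib1 replicate 4 or TB14 replicate 1. Counts of members called stayed at 8 to 9 in TB13, 8 to 9 in TB14, 10 over both and 8 to 9 in TB14 minus TB13, and of list genes at 80 to 82, 67 to 73, 73 to 77 and 79 to 81.

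With 1 probe set per gene, 5 of 7 members were called in TB14 minus TB13, where 92.8% of all genes were. The 2-fold threshold left 4 member probe sets in TB14, 4 over both lines and 5 in TB14 minus TB13, where 0.995%, 0.309% and 17.2% of all probe sets were higher and 1.5%, 2.57% and 0.91% lower. Of 91 list genes it left 26 in TB13, 14 in TB14, 16 over both lines and 11 in TB14 minus TB13, where 1.01%, 1.02%, 0.41% and 15.3% of all genes were higher and 14.8%, 1.79%, 3.06% and 1.2% lower. With each line's mean as 1 sample, 0 members were called by limma, where 0.0801% of all probe sets were (14 of 17480). Same-numbered arrays correlated at -0.095 to 0.13 in their deviations. Arrays of different numbers were not compared, so this cannot decide whether the numbers pair arrays. With the replicate number as a block, 8, 9, 10 and 8 member probe sets and 80, 71, 74 and 79 list genes were called in TB13, in TB14, over both lines and in TB14 minus TB13. Without a block, 90.4%, 49.5%, 81% and 91.2% of all probe sets and 92.6%, 48.5%, 84.2% and 92.8% of all genes were called. Values near the array medians, those of Cma1 in the Bcl11a lines and of Prg2 and Epx, limit what their differences show.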
